A study of Rattus norvegicus with 8 samples.

Results

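The miR-181 family was represented by 9 of the 620 mature miRNAs counted in rat kidney. Its members were the names that begin with miR-181 followed by a, b, c or d, and both arms of a hairpin were taken where both were listed. They were 4 guide (5p) arms, rno-miR-181a, rno-miR-181b, rno-miR-181c and rno-miR-181d (written here without the prefix for the rat), and 5 star (3p) arms, miR-181a-1\*, miR-181a-2\*, miR-181b-1\*, miR-181b-2\* and miR-181c\*. The kidneys came from 8 male Fisher 344 rats of the Big Blue Transgenic strain, which carries a bacterial reporter gene for mutation studies in both groups. From an age of 6 weeks, 4 rats received aristolochic acid (AA), the nephrotoxic carcinogen of Aristolochia plants, as its sodium salt by gavage (a dose of 10.0 mg/kg and a volume of 4 ml/kg on 5 days of each week), and 4 control rats received 0.9% sodium chloride on the same days. The study's methods give 12 weeks of treatment, whereas the labels of rats 1, 2, 3 and 4 of each group give 12, 13, 14 and 15 weeks with an age of 18 weeks for every rat. The small RNA of every kidney went into a library of its own, and 13412373 to 15616670 reads per rat were counted on miRNAs.

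A miRNA hairpin is cut into 2 arms, of which the guide arm usually enters the silencing complex and the star arm is mostly degraded. Guides that share bases 2 to 8, the seed, can pair with the same sites in messenger RNAs. miR-181 miRNAs are best known from developing lymphocytes, where miR-181a tunes the sensitivity of T cell receptor signalling, and they are also made in brain, muscle, endothelium and other tissues. Whole kidney mixes these cell types with tubule epithelium, so that fewer cells of a type and less miRNA per cell cannot be told apart here.

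The 4 guides are printed because the family is defined by their shared seed (capitals) and because their few differences decide how reads are assigned. They were taken from RefSeq (GRCr8), in which 8 of the 9 members had a mature sequence.

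miR-181a: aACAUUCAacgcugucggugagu
miR-181b: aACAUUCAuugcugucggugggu
miR-181c: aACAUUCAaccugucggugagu
miR-181d: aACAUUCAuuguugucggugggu

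Of 693 mature rat miRNA names in that table, 4 carried the seed ACAUUCA, and these were the 4 guides. Counted from the 5′ end with miR-181a as the reference, miR-181b differed by A9U, C10U and A21G and miR-181d by A9U, C10U, C12U and A21G. miR-181b and miR-181d were therefore separated by 1 base, C12U with miR-181b as the reference. miR-181c was identical to miR-181a except that base 11 of miR-181a was absent.

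The star arms are printed because 2 of them also shared a seed, and because they tell apart hairpins that make the same guide.

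miR-181a-1\*: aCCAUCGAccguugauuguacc
miR-181c\*: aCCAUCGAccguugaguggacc
miR-181a-2\*: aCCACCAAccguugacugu
miR-181b-1\*: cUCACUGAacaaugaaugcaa

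miR-181a-1\* and miR-181c\* had the same first 15 bases and differed by U16G and U19G, with miR-181a-1\* as the reference. The length listed in RefSeq was 19 bases for miR-181a-2\* and 21 bases for miR-181b-1\*, below the 22 bases of miR-181a-1\* and miR-181c\*. The RNA band cut for the libraries began at the length of these 2 longer arms. The effect of this cut on the counts was not tested.

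In RefSeq, the family came from 3 pairs of neighbouring hairpins. Mir181a-1 and Mir181b1 lie on chromosome 13, where the next protein-coding gene on one side is Ptprc, the leukocyte surface phosphatase CD45. Mir181a2 and Mir181b2 lie on chromosome 3 within the span of Nr6a1, an orphan nuclear receptor gene. Mir181c and Mir181d lie on chromosome 19, with Nanos3, a germ cell gene, as a neighbour. The guides miR-181a and miR-181b are made from 2 hairpins each, and their counts are the sum over both. Only their star arms show the hairpins separately.

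The family held 0.0811% to 0.110% of the miRNA counts of a control rat and 0.0866% to 0.126% of those of an AA-treated rat. The exact 95% binomial intervals of the lowest share, in control rat 4, and of the highest share, in AA-treated rat 2, were 0.0796% to 0.0826% and 0.124% to 0.128%, and they cover counting error only. After division by median-of-ratios size factors, the summed family had 15124 ± 1114 normalized counts in the control kidneys and 14210.5 ± 1972 in the AA kidneys (SD, n = 4 each). The difference between these means was smaller than the SD of either group. By mean normalized count over the 8 rats, miR-181a ranked 63rd of 620 miRNAs, miR-181b 100th, miR-181d 118th and miR-181c 120th. The 4 guides ranked in the same order in the control kidneys. The highest star arm, miR-181a-1\*, ranked 214th. Counts of different miRNAs are numbers of reads, and molecules of RNA were not calibrated.

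miR-181a alone made up 61.0% of the summed family counts of the control group and 64.3% of those of the AA-treated group. miR-181b followed with 18.6% and 16.4%, then miR-181d with 9.31% and 9.59% and miR-181c with 8.78% and 7.30%. The positions of miR-181d and miR-181c were not separated by their spread in the control kidneys, where their shares per rat averaged 9.17 ± 1.10% and 8.95 ± 1.82% (SD, n = 4 each). The star arms together made up 2.44 ± 0.766% of the family in the control kidneys and 2.53 ± 0.926% in the AA kidneys (SD, n = 4 each).

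The question of the comparison was whether the carcinogenic AA treatment changed the family. None of the 9 members was differentially expressed (edgeR's quasi-likelihood test, adjusted p under 0.05 with Benjamini-Hochberg adjustment over 620 miRNAs, and a fold change over 1.5), against 9.03% of all miRNAs (5.81% higher and 3.23% lower after AA treatment). DESeq2 and limma-voom also gave 0 members. No member had an unadjusted p under 0.05 in the edgeR test, which 23.9% of all miRNAs had. In no member did the 4 AA-treated rats lie apart from the 4 control rats, which was the case for 16.3% of all miRNAs.

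**Figure D1:**
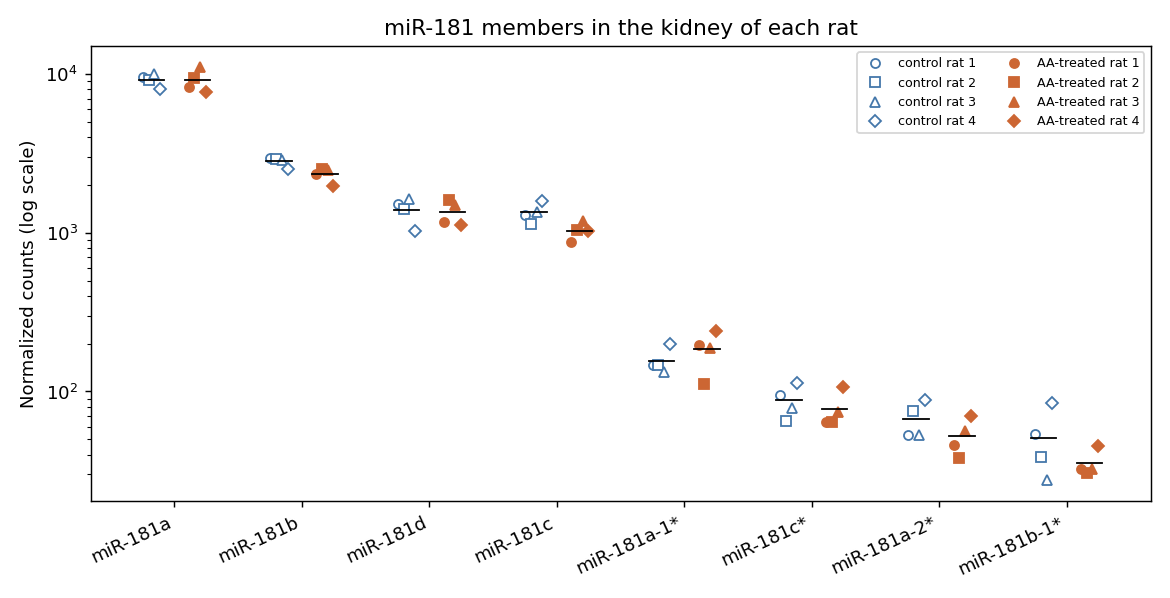
Normalized counts (log axis) of the 8 members with more than 3 counts in a rat, for control rats (open blue) and AA-treated rats (filled orange), with 1 marker shape per rat number and a black bar at the mean of 4 rats. The groups overlap in each member, from miR-181a at 7661 to 11129 normalized counts down to miR-181b-1\* at 27.5 to 84.3.

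miR-181a, the most abundant guide, had 9636, 9200.4, 9997 and 8003 normalized counts in control rats 1 to 4. In AA-treated rats 1 to 4 it had 8307, 9503, 11129 and 7661. The highest and the lowest rat were both AA-treated, and the control rats lay between them. The means were 9209 ± 868 and 9150.1 ± 1524 (SD, n = 4 each). On the log2 scale the fold change was -0.01 (standard error, SE, 0.18, edgeR adjusted p = 0.977). Its 95% interval of -0.40 to 0.38 corresponds to ratios of 0.757 to 1.30. With these median-of-ratios size factors, a 1.5-fold change in either direction lay outside it.

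miR-181b, which shares the seed and both cluster locations with miR-181a, had 2941, 2929, 2876 and 2512 normalized counts in the control kidneys. In the AA-treated rats it had 2349, 2520.0, 2477 and 1972. The groups overlapped only in that AA-treated rat 2 slightly exceeded control rat 4. The means were 2815 ± 204 and 2329.5 ± 249 (SD, n = 4 each). The log2 fold change was -0.27 (SE 0.18, 95% interval -0.66 to 0.12, edgeR adjusted p = 0.385), and the exact two-sided permutation test gave p = 0.0571.

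miR-181c, a guide of the chromosome 19 pair, had 1296, 1136, 1350.1 and 1582 normalized counts in the control kidneys. In the AA-treated rats it had 875, 1039.5, 1187 and 1024. AA-treated rat 3 was above control rat 2, and the other AA-treated rats were below all control rats. The means were 1341 ± 185 and 1031 ± 128 (SD, n = 4 each). This was the smallest p of the family, with a log2 fold change of -0.38 (SE 0.20, 95% interval -0.81 to 0.05, edgeR unadjusted p = 0.0801 and adjusted p = 0.277) and p = 0.0571 in the exact two-sided permutation test. A decrease of more than 1.5-fold lies within this interval and within that of miR-181b.

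miR-181d, the other guide of the chromosome 19 pair, had 1515, 1408, 1629 and 1031 normalized counts in the control kidneys. In the AA-treated rats it had 1166, 1616, 1497 and 1122. The groups covered nearly the same range. The means were 1396 ± 259 and 1350.3 ± 244 (SD, n = 4 each). The log2 fold change was -0.05 (SE 0.22, 95% interval -0.52 to 0.42, edgeR adjusted p = 0.902).

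**Figure D2:**
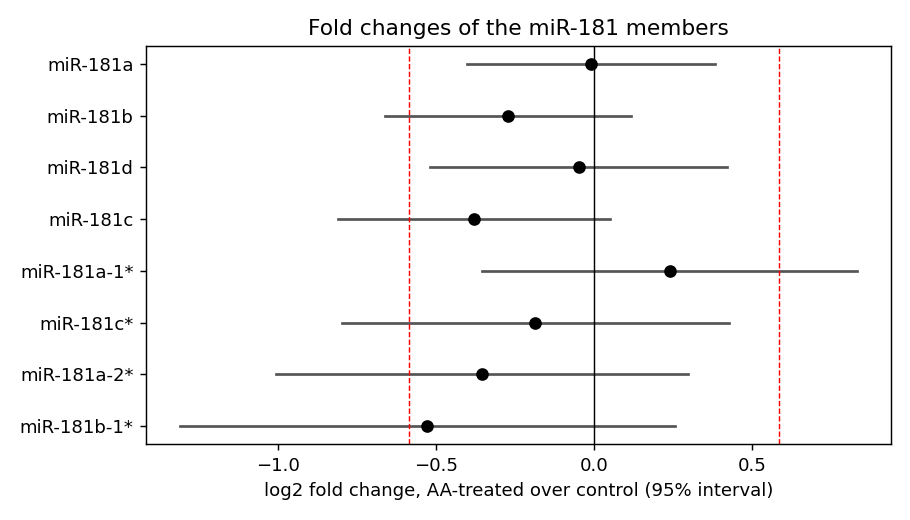
Log2 fold changes of AA-treated over control rats (points) with 95% intervals from edgeR (lines) for the 8 members with more than 3 counts in a rat. The red dashed lines mark a 1.5-fold change either way, the black line no change, and the intervals of miR-181a and miR-181d stay inside the dashed lines.

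miR-181a-1\*, the star arm of the chromosome 13 hairpin of miR-181a, had 148, 146, 132 and 198 normalized counts in the control kidneys and 195, 111, 187 and 242 in the AA kidneys. AA-treated rat 2 was the lowest of the 8 rats and AA-treated rat 4 the highest. It was the only member with a positive log2 fold change, 0.24 (SE 0.28, edgeR adjusted p = 0.606). miR-181a-2\*, its counterpart from chromosome 3, had 53.0, 75.8, 53.1 and 88.0 normalized counts in the control kidneys. In the AA-treated rats it had 46.0, 38.2, 56.2 and 70.03, a log2 fold change of -0.36 (SE 0.30, edgeR adjusted p = 0.496).

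miR-181b-1\*, from chromosome 13, had 27.5 to 84.3 normalized counts in the control kidneys and 30.4 to 45.6 in the AA kidneys, with the highest value of each group in the rat numbered 4. Its log2 fold change was -0.53 (SE 0.36, edgeR adjusted p = 0.396). miR-181c\* had 64.8 to 112 normalized counts in the control kidneys and 64.0 to 107 in the AA kidneys, with a log2 fold change of -0.19 (SE 0.28, edgeR adjusted p = 0.702). For miR-181b-1\*, all AA kidneys lay within the wider range of the control kidneys, and for miR-181c\* the groups covered nearly the same range. miR-181b-2\*, the star arm of the chromosome 3 hairpin of miR-181b, had 1, 0, 1 and 1 counts in the control kidneys and 0, 1, 0 and 0 in the AA kidneys. All of these are at or under the floor of 3 counts, so no fold change is given.

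Over the 8 members with more than 3 counts in a rat, the median log2 fold change was -0.23, and 7 were below 0, of which miR-181a, miR-181d and miR-181c\* lay above 0 when total counts were used for scaling. Over the 498 miRNAs of the whole table with more than 3 counts in a rat, the median was 0.05, and 239 were below 0. The control rats differed little in the guides, whose median coefficient of variation was 11.6%, against 16.1% over the 130 miRNAs with a mean of at least 1000 normalized counts. In the AA-treated rats these values were 14.5% and 21.7%. No test was made of these differences.

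A ratio of counts within a library does not depend on the normalization, and 16 ratios between members were computed. The 6 ratios between star arms were added after the values were seen. The groups did not overlap in 2 of the 16, whereas this was so in 27.6% of the 65341 ratios between any 2 miRNAs with a median of at least 10 counts. For both, the exact two-sided permutation test gave p = 0.0286, the smallest that 4 rats against 4 allow. The p adjusted over the 16 ratios was 0.229. Adjusted over the 10 ratios planned beforehand, the p of miR-181a to miR-181b was 0.286.

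The first was the ratio of miR-181a to miR-181b. It was 3.28, 3.14, 3.48 and 3.19 in the control kidneys and 3.54, 3.77, 4.49 and 3.88 in the AA kidneys. All 4 AA kidneys exceeded all 4 control kidneys, but AA-treated rat 1 was nearer to control rat 3 than to the other AA-treated rats. The mean log2 ratio was higher by 0.26 ± 0.08 (SE) in the AA kidneys, a 1.20-fold difference.

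The second was the ratio of miR-181a-1\* to miR-181a-2\*, the star arms of the 2 hairpins that make miR-181a. It was 2.77, 1.92, 2.47 and 2.24 in the control kidneys and 4.20, 2.88, 3.31 and 3.44 in the AA kidneys. The mean log2 ratio was higher by 0.56 ± 0.16 (SE), a 1.47-fold difference. The gap between the groups, from 2.77 to 2.88, was small beside the spread within each group.

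**Figure D3:**
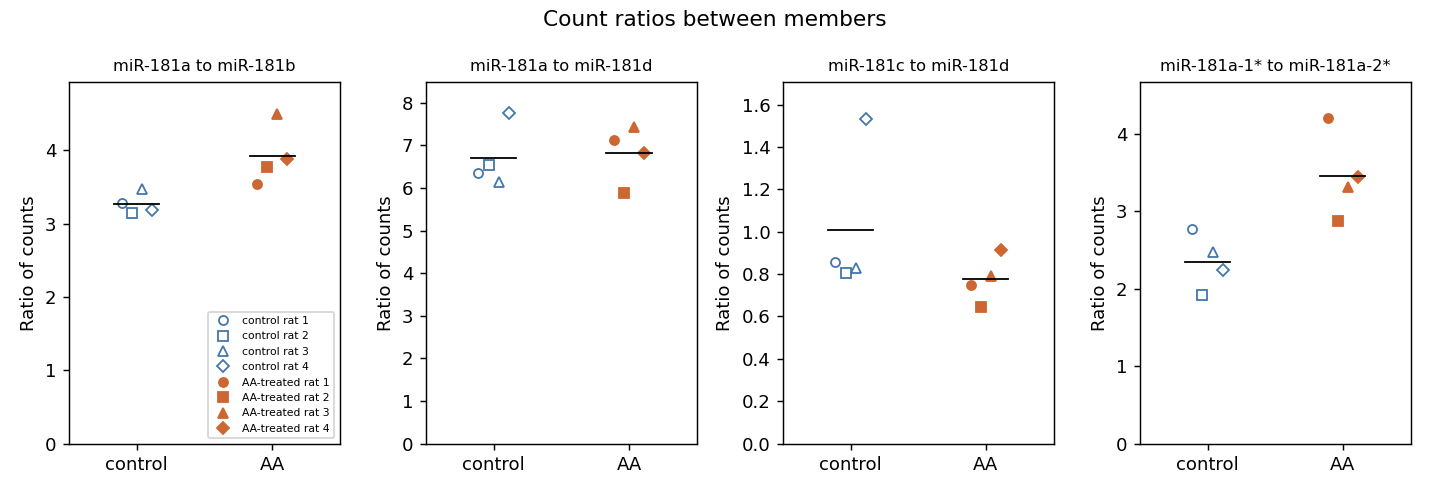
Ratios of the counts of pairs of members (linear axes from 0) in control rats (open blue) and AA-treated rats (filled orange), with a black bar at the mean of 4 rats. The groups do not overlap for miR-181a to miR-181b and for miR-181a-1\* to miR-181a-2\*, overlap for miR-181a to miR-181d, and control rat 4 lies at 1.53 for miR-181c to miR-181d.

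The ratio of miR-181a to miR-181d was 6.14 to 7.76 in the control kidneys and 5.88 to 7.43 in the AA kidneys, with a difference in mean log2 ratio of 0.03 ± 0.11 (SE, exact permutation p = 0.771, adjusted p = 0.823). The ratio of miR-181a to miR-181c was 5.06 to 8.10 and 7.48 to 9.49, a difference of 0.36 ± 0.17 (SE, exact permutation p = 0.0571, adjusted p = 0.305). Whether the shift against miR-181b differs from that against miR-181d was read from the ratio of miR-181b to miR-181d itself. It was 1.77 to 2.43 in the control kidneys and 1.56 to 2.01 in the AA kidneys, a difference of -0.23 ± 0.13 (SE, exact permutation p = 0.114, adjusted p = 0.305). The groups overlapped in this ratio.

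miR-181c and miR-181d come from neighbouring hairpins, and their ratio stood apart in 1 library. It was 0.807 to 0.855 in control rats 1 to 3, 1.53 in control rat 4 and 0.643 to 0.912 in the AA kidneys. Control rat 4 had both the highest miR-181c and the lowest miR-181d of the 8 rats. Within the groups, miR-181a, miR-181b and miR-181d varied together from rat to rat, with correlations of their deviations from the group means of 0.822 to 0.856 (Pearson, 8 rats, log2 normalized counts). miR-181c had correlations of -0.24 to 0.20 with these 3 guides, and these rested on the rats numbered 4. In the other 6 rats, an alternative added after the values were seen, the correlations of miR-181c with miR-181b, miR-181d and miR-181a were 0.549, 0.809 and 0.958, and those among miR-181a, miR-181b and miR-181d were 0.574 to 0.784. These values share 8 libraries and their size factors and are given as a description.

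None of the 4 ratios of a star arm to its guide passed the test between the groups (exact permutation p from 0.400 to 0.771, adjusted p from 0.686 to 0.823). miR-181a-1\* had 1.54, 1.59, 1.32 and 2.48 counts per 100 counts of miR-181a in the control kidneys and 2.36, 1.17, 1.69 and 3.16 in the AA kidneys. The rat numbered 4 was the highest of each group. miR-181b-1\* had 1.86, 1.33, 0.972 and 3.38 counts per 100 of miR-181b in the control kidneys and 1.41, 1.22, 1.33 and 2.33 in the AA kidneys, again with rat 4 highest. miR-181c\* had the largest proportion, 5.75 to 7.41 counts per 100 of miR-181c in the control kidneys and 6.19 to 10.5 in the AA kidneys. Over the 4 ratios and 2 groups, the rat numbered 4 was highest in 7 of 8 cases. Over 91 other hairpins with both arms counted, it was highest in 73 of 182 cases (40.1%). The cases of the family are not separate, since the ratios of miR-181a-1\* and miR-181a-2\* share the counts of miR-181a. miR-181a was lowest of its group in both rats numbered 4, at 8003 (control) and 7661 (AA-treated) normalized counts.

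**Figure D4:**
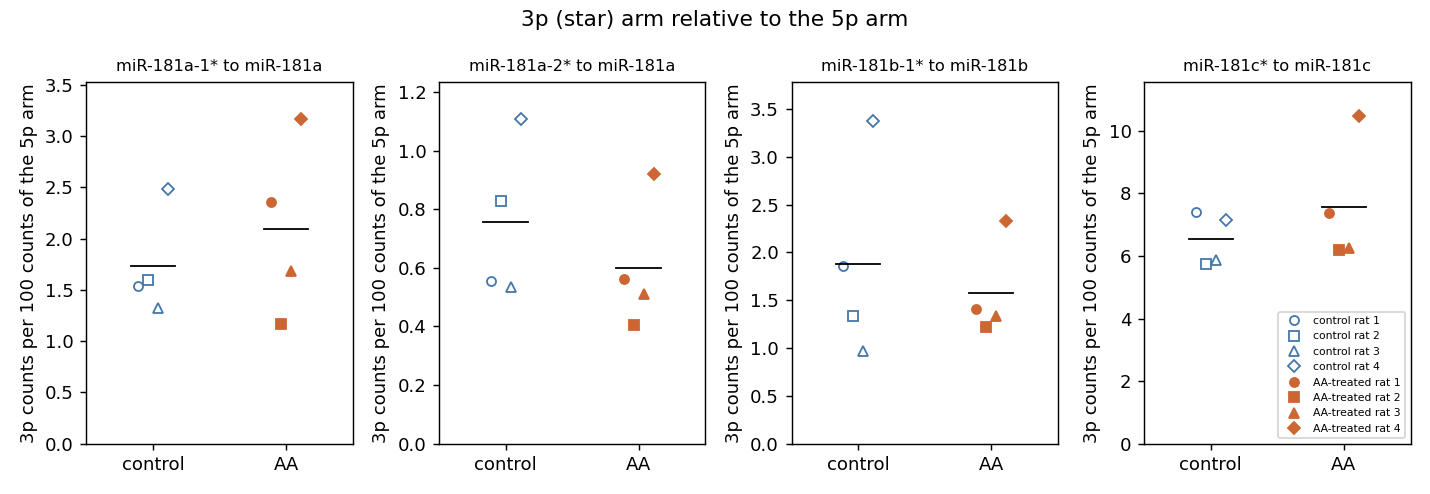
Counts of the star (3p) arm per 100 counts of the guide (5p) arm (linear axes from 0) in control rats (open blue) and AA-treated rats (filled orange), with a black bar at the mean of 4 rats. The rats numbered 4 (diamonds) are the highest of their group in 7 of the 8 columns, the exception being the control rats for miR-181c\*.

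The rats numbered 4 thus had 3.55% (control; exact 95% interval 3.22% to 3.92%) and 3.79% (AA-treated; 3.49% to 4.11%) of their family counts on star arms, against 1.64% to 2.59% in the other 6 rats. Without both rats numbered 4, 0 members were differentially expressed, and 42 of all miRNAs were.

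miRNAs that mark cell types in which miR-181 is made were measured in the same libraries. Of 7 leukocyte miRNAs measured, 3 were called higher after AA treatment and 0 lower, against 5.81% and 3.23% of all miRNAs. The study had listed these 3 as dysregulated from the same libraries. The marker list was chosen with earlier results of these data known, so neither count is independent support. They were miR-142-3p, a miRNA of all blood cell lineages, from 14047 ± 1876 to 37532 ± 11515 normalized counts, miR-146b, induced in inflammation, from 5619 ± 984 to 26348 ± 12391, and miR-223, a myeloid miRNA, from 590.1 ± 45.5 to 1147 ± 341 (SD, n = 4 each; adjusted p = 7.92e-04, 2.85e-04 and 0.0231 from edgeR). miR-146a, which restrains inflammatory signalling, had 21102 ± 2938 and 19140 ± 1371. miR-142-5p, the other arm of the miR-142-3p hairpin, is named after its values were seen. It was not called, with 627 to 992 normalized counts in the control kidneys and 402 to 1503 in the AA kidneys. Its lowest value was in AA-treated rat 4, where miR-142-3p was highest, at 53269. The summed list, in which miR-142-3p, miR-146a and miR-146b were most abundant, had 37749 to 49861 normalized counts in the control kidneys. In the AA kidneys it had 61548 to 111891, without overlap. Of its 3 most abundant members, miR-142-3p and miR-146b rose and miR-146a did not, so the sum does not show a rise across the list. Among single miRNAs the groups did not overlap in 16.3%, and the share for sums was not computed. The summed miR-181 family had 13612 to 16145 and 12243 to 16640.0.

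Of the 2 endothelial miRNAs, none was called. miR-126 had 111727 ± 21652 and 95149 ± 23879 normalized counts in control and AA kidneys, respectively, and miR-126\* had 31351 ± 5774 and 20432 ± 9569 (SD, n = 4 each). Among 4 miRNAs of neurons, miR-124 was called higher, at 1.45 ± 1.56 and 13.4 ± 8.31 normalized counts. miR-9, the most abundant, had 4790 ± 727 and 5808 ± 1830, miR-128 had 305 ± 38.1 and 345 ± 59.9, and miR-138 had 191 ± 20.6 and 244 ± 51.3. Of 5 muscle miRNAs measured, 0 were called. miR-499 had 1770 ± 163 and 1445 ± 383, miR-1 had 448 ± 151 and 375 ± 114, and miR-206 had 175 ± 57.1 and 101 ± 41.1. The kidney label was met by its epithelial miRNAs, of which all 10 were measured. miR-30a, miR-192 and miR-30d were the highest of these, and miR-204 was the only one called, from 447 ± 103 to 247 ± 31.9 normalized counts (adjusted p = 0.0357 from edgeR). Of 5 fibroblast and smooth muscle miRNAs and of 2 red cell miRNAs measured, 0 were called in either list. In the former, log2 fold changes were -0.41 for miR-143, 0.22 for miR-145 and 0.60 for miR-199a-3p (edgeR adjusted p = 0.0670 for the last). The red cell miRNAs miR-451 and miR-144 had -0.77 and -0.55. The part of these cell types in the levels of miR-181 was not tested. miR-124, miR-223 and miR-204 are named because they were the called members outside the most abundant 3 of their lists.

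The 5 miRNAs outside the family whose level followed miR-181a most closely over the 8 rats were miR-29a (r = 0.951), miR-33\* (r = 0.948), miR-10a-3p (r = 0.898), miR-429 (r = 0.886) and miR-10a-5p (r = 0.871). The measure was Pearson's r of log2(normalized count + 1), and 235 miRNAs with a mean of at least 100 normalized counts were compared. These are the highest of 235 values over 8 rats that share size factors, and they are given as a description.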

How the data were processed

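Small RNA of 4 control and 4 AA-treated rat kidneys was sequenced in 8 separate libraries. The authors masked adaptors, removed contaminated reads and assigned grouped reads to the rat miRNAs of miRBase 16 with the default parameters of miRanalyzer. The submitters' processing notes name CASAVA 1.7. The deposited values are whole-number read counts per miRNA, not normalized. How reads that match several miRNAs were counted is not given in the sources used here, which leaves the counts of near-identical members uncertain.

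Median-of-ratios size factors were used to normalize the counts. All 620 miRNAs were tested with edgeR 4.0.16 in R 4.3.3 without a covariate, and the fit was tested on simulated data. Calls required adjusted p under 0.05 together with group means that differed by over 1.5-fold. Ratios between members used a pseudocount of 0.5 and required a median of at least 10 counts. They were compared with exact two-sided permutation tests over 70 labelings, with scipy 1.17.1. Alternatives used limma 3.58.1 and DESeq2 1.42.0. Members and lists were chosen with earlier results of these data known. All members were named, with the 5 miRNAs most like miR-181a and the 3 most abundant of each marker list. Within each group, no library repeated another (lowest chi-square per degree of freedom 394). Libraries of different groups were not compared in this way. mRNA and protein data were not analysed here.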

Additional observations from a re-analysis of the deposited data

Results flagged for a closer look

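Within the 4 rats of a group, 5 values of the family stood apart from the other 3 rats by Dixon's test, among 54 groups of values examined. Chance flags about 1 in 20 groups, but these groups are not independent, since the ratios reuse the counts of the members. In the control rats, miR-181b was lowest in rat 4, at 2512 normalized counts against 2876 in the next rat, and the ratio of miR-181c to miR-181d was highest in rat 4, at 1.53 against 0.855. In the AA-treated rats, miR-181b-1\* was highest in rat 4, at 45.6 normalized counts against 32.5, and the ratio of miR-181b-1\* to miR-181b was highest in the same rat, at 0.0233 against 0.0141. miR-181b-2\* had 0.780 normalized counts in AA-treated rat 2, which was 1 read, and 0 in the others. Of these 5 values, 4 thus came from the rats numbered 4, but those of miR-181b-1\* and of its ratio rest on the same counts.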

How the results depend on the processing

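Over 16 other settings, 0 members passed both thresholds in each, while 40 to 74 of all miRNAs did, against 56. Leaving out 1 rat gave 40 to 62. Rats of the same number in both groups are different animals with the same treatment weeks in their labels. Their deviations from the group means had correlations of -0.01, 0.14, 0.12 and 0.34 for numbers 1 to 4. Rats of unlike numbers had -0.28 to 0.25, so the value of number 4 was the highest of all. The main fit did not take the numbers as pairs, and whether they mark a shared factor was not tested. With the number as a replicate block, 74 miRNAs and 0 members passed. The SE of each member given a fold change was smaller with the block, for miR-181a 0.14 in place of 0.18. With total counts, the middle log2 fold change of the whole table was 0.32 in place of 0.05, and the calls were 58 higher and 11 lower, against 36 and 20.

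The sign of the smallest fold changes was not fixed. miR-181a had log2 fold changes of 0.041 with TMM factors, 0.25 with total counts, 0.015 without both rats numbered 4 and -0.13 to 0.072 with 1 rat left out. miR-181d had 0.0033 with TMM factors, 0.21 with total counts and -0.18 to 0.036 with 1 rat left out, and miR-181c\* had 0.088 with total counts. With total counts, miR-181a and miR-181d had SEs of 0.21 and 0.25. Around these higher fold changes, a 1.5-fold increase, which the main fit left out, was no longer left out. The lowest adjusted p of a member over these settings was 0.1505 (miR-181c). The other members kept their sign, but the sizes moved. With total counts miR-181b had -0.014, miR-181c -0.11 and miR-181a-2\* -0.084, miR-181b-1\* had -0.19 without control rat 4, and miR-181a-1\* had 0.085 without AA-treated rat 4.

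With 1 rat left out, the difference in log2 ratio was 0.19 to 0.31 for miR-181a to miR-181b and 0.46 to 0.64 for miR-181a-1\* to miR-181a-2\*. The exact permutation p was 0.0571 in each case, the smallest that 4 against 3 allow. Without both rats numbered 4 the differences were 0.25 and 0.54, with an exact permutation p of 0.1, the smallest for 3 against 3. Ratios that changed sign with 1 rat left out were miR-181a to miR-181d (-0.018 to 0.099), miR-181b to miR-181c (-0.036 to 0.20), miR-181a-1\* to miR-181a (-0.012 to 0.47), miR-181b-1\* to miR-181b (-0.41 to 0.18), miR-181a-2\* to miR-181b-1\* (-0.10 to 0.23, and -0.094 without both rats numbered 4) and miR-181a-2\* to miR-181c\* (-0.32 to 0.035). Star arms with under 100 normalized counts had intervals that reached below a 1.5-fold decrease, as did those of miR-181b and miR-181c. A decrease of that size could thus not be told from no change. For miR-181a-1\*, the 95% interval of -0.35 to 0.83 reached above a 1.5-fold increase, which could likewise not be told from no change. The parts of depth and of the spread between 4 rats in these intervals were not tested.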

Other observations

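In the whole table, 262 names end in a star. Together they held at least 2.19% of the counts in each control library and at most 1.96% in each AA library, without overlap (exact two-sided permutation test, p = 0.0286, the smallest that 4 rats against 4 allow). In the miR-181 family, the star arms held 1.81% to 3.55% of the family in control kidneys, against 1.64% to 3.79% in AA kidneys. AA-treated rat 4 had the lowest share of star names in its library and the highest share within the family. The difference between the libraries rested on 1 name, miR-140\*, named after its values were seen, which alone held 1.29% to 1.33% of a control library and 0.751% to 1.09% of an AA library. It is a star by name, but it was the more abundant arm of its hairpin, unlike the star arms of the family. In the control rats miR-140\* had 195805 to 223818 normalized counts and miR-140 had 4413 to 5744. Without miR-140\*, star names held 0.869% to 1.06% and 0.867% to 0.949%, which overlapped (exact two-sided permutation test, p = 0.371). These shares were computed after other values had been seen.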
